A study of Mus musculus with 7 samples.

Results

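The 8 genes described here encode inhibitory receptors of lymphocytes, namely Pdcd1, Ctla4, Lag3, Havcr2, Tigit, Cd160, Cd244 and Btla, and the data are the regions bound by the transcription factor Runx3 and the regions marked by H3K4me1 at these genes in resting CD8+ T cells (CD8-TC). A region was assigned to a gene when its midpoint lay in the annotated gene or within 20 kb of either end. By this rule 6 of the 4934 Runx3-bound regions and 66 of the 76705 H3K4me1-marked regions belonged to the 8 loci, which span 497.4 kb together. All positions are on the mouse build mm9 (NCBIM37).

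The study mapped Runx3 occupancy by ChIP-seq, that is, sequencing of chromatin fragments pulled down with an antibody, in splenic CD8-TC freshly isolated from WT mice of the ICR stock. The cells of 18 mice were pooled and selected on anti-CD8 magnetic beads. The 7 libraries fall into 3 groups: 3 libraries from 2 biological repeats with a polyclonal anti-Runx3 antibody, 2 with a monoclonal antibody to H3K4me1 and 2 with non-immune rabbit serum (NIS), the control. There was no group of another genotype, treatment or cell state here, and the cells of each library are a pool, so that a mark carried by some of the cells cannot be told apart from a weaker mark on all of them. Each list of regions was called by the authors on joined repeats against joined NIS, and both lists therefore share the same control. The lists give positions only, with no height, p-value or read number. The number of reads behind a region and values per repeat were therefore not used here, and every comparison here is a description without a test.

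Inhibitory receptors bind ligands on neighbouring cells and recruit phosphatases or adaptors that dampen signals from the antigen receptor. They restrain T cells after activation, and several of them are used as markers of exhausted CD8+ T cells in chronic infection and tumours. Runx3 is a DNA-binding protein of the RUNX family that acts in CD8+ T cells both as an activator and as a repressor. H3K4me1, monomethylation of lysine 4 of histone H3, marks enhancers and the flanks of active promoters and can be present before a gene is expressed, so its presence alone does not tell whether a gene is transcribed.

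The sequences below show the DNA of the 6 Runx3-bound regions, since the motif content of these regions is one of the few properties that the lists and the genome together allow to be read. Shown is the stretch of up to 300 bp holding the most RUNX motifs in each region, on the plus strand. Capitals mark the RUNX motif, taken as TGTGGT or TGTGGC or TGCGGT or TGCGGC on either strand, so that a motif on the minus strand appears as its reverse complement. The stretches are Pdcd1 chr1:95931781-95932080, Ctla4 chr1:60973373-60973672, the stretch counted to Lag3 inside the Cd4 gene at chr6:124836009-124836308, the stretch counted to Havcr2 at the Med7 promoter at chr11:46250524-46250553, which is cut to 30 bp because it lies in a transcribed leader, Cd160 chr3:96618445-96618744 and Btla chr16:45224811-45225110.
Pdcd1: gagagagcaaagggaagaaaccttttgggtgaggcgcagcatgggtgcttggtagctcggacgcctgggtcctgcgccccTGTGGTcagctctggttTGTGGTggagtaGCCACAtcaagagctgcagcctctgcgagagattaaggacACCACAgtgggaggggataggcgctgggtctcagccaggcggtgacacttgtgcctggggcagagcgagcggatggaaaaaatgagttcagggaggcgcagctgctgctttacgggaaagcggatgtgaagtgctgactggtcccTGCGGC
Ctla4: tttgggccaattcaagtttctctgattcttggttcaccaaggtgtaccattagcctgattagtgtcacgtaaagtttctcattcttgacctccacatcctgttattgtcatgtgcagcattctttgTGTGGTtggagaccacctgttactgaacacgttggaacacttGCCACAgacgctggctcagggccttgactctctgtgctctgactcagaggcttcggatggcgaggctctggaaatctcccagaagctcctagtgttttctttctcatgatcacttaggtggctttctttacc
Lag3: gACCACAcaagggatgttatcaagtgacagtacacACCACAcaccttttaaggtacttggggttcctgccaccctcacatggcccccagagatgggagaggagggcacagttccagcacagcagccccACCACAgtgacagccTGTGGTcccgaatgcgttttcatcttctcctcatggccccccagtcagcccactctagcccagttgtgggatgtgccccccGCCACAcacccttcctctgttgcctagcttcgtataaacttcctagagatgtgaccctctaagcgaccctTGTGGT
Havcr2: cggcggttggcgACCGCAgcctaagtctgt
Cd160: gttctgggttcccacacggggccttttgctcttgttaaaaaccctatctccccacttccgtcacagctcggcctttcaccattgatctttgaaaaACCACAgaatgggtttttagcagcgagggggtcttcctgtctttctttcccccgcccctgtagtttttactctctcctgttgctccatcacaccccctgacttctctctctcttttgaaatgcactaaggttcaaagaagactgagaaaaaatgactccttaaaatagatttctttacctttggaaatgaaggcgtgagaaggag
Btla: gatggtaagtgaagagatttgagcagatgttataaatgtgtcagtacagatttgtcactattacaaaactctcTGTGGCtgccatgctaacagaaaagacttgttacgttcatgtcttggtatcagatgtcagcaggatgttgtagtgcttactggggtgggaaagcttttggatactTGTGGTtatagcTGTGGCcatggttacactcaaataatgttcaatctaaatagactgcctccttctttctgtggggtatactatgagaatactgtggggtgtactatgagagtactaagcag

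The stretch at Pdcd1 holds all 5 RUNX motifs of its region, and 4 of them begin within 44 bp of the midpoint. The stretch at Lag3 holds 6 of 7. At Cd160 and Havcr2 the region holds 1 motif each, which begins 21 bp and 20 bp from the midpoint.

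A Runx3-bound region was present at 6 of the 8 loci. Tigit and Cd244 had none. Among all 22350 protein-coding genes, 19.8% had at least 1 Runx3-bound region in a window built the same way, and the median gene had 0. No locus of the 8 had more than 1 region. The density was 12.1 Runx3-bound regions per Mb over the 8 loci, 2.64 per Mb over the windows of all protein-coding genes, and 1.87 per Mb over the genome. The 6 regions differ in their place, and for only 3 of them, those of Ctla4, Cd160 and Btla, is the nearest protein-coding transcription start site (TSS) that of the receptor gene itself.

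**Figure D1:**
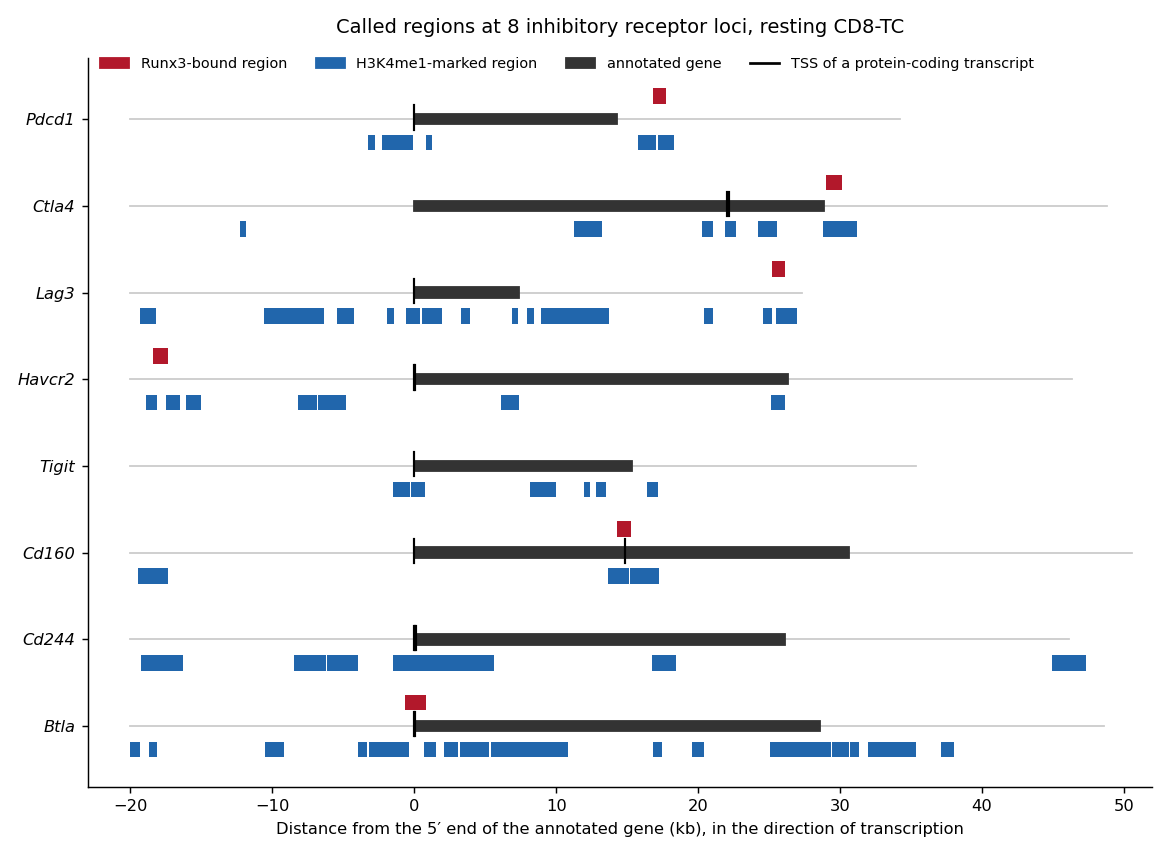
Map of the 8 loci, drawn from the 5′ end of each annotated gene in the direction of transcription (kb), with the gene body as a dark bar, TSSs of protein-coding transcripts as vertical ticks, Runx3-bound regions in red above and H3K4me1-marked regions in blue below. Called Runx3-bound regions sit at a TSS of Cd160 and Btla, past the 3′ end of Pdcd1, Ctla4 and Lag3, and upstream of Havcr2. None was called in the windows of Tigit and Cd244, while H3K4me1 is present at all 8.

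Btla and Cd160 are receptors for the same ligand, Tnfrsf14 (HVEM), and they were the 2 members with Runx3 within 1 kb of a TSS. Over all protein-coding genes this share was 4.72%. At Btla (ENSMUSG00000052013.7, chr16:45224428-45253008, plus strand) the Runx3-bound region chr16:45223747-45225225 is 1479 bp wide, wider than 98.7% of the list, and covers both annotated protein-coding TSSs. Its midpoint lies in the first coding exon, 36 bp from the nearer TSS. At Cd160 (ENSMUSG00000038304.8, chr3:96602686-96633274, minus strand), which encodes a receptor tethered to the membrane by a lipid anchor, the region chr3:96618017-96619021 is 1005 bp wide. It covers not the 5′ end of the annotated gene but the TSS of a shorter protein-coding transcript at 96618444, 75 bp from its midpoint, inside an intron of the longer transcript. The TSS of the longer transcript at 96633274 lies 14253 bp from this region and 13664 bp from the nearest H3K4me1-marked region of the locus, so that of the 2 annotated Cd160 promoters the internal one carried both Runx3 and H3K4me1.

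At Pdcd1 and Ctla4, which encode PD-1 and the competitor of Cd28 for Cd80 and Cd86, Runx3 lay past the 3′ end of the gene. The Pdcd1 gene (ENSMUSG00000026285.6) is at chr1:95934884-95949130 on the minus strand. Its Runx3-bound region, chr1:95931424-95932348 (925 bp), is intergenic, with the midpoint 2998 bp past the 3′ end and 17244 bp from the TSS. The TSS nearest to it is that of Neu4, a sialidase gene, 13713 bp away. At Ctla4 (ENSMUSG00000026011.6, chr1:60943844-60972676, plus strand) the region chr1:60972832-60973982 is 1151 bp wide, wider than 93.7% of the list. Its midpoint lies 731 bp past the 3′ end and 7392 bp from the nearer of the protein-coding TSSs of Ctla4. The next Runx3-bound region from Ctla4 is 61.9 kb past its 3′ end and 177 bp from the TSS of Icos, the costimulatory receptor gene that follows Ctla4 on the chromosome.

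At Lag3 and Havcr2 the Runx3-bound region lay at a neighbouring gene, in an intron of Cd4 and across the start of Med7, and entered the count only through the 20 kb margin. Lag3 (ENSMUSG00000030124.2, chr6:124854379-124861723, minus strand), a relative of Cd4 that binds MHC class II, stands next to Cd4. The region chr6:124835632-124836516 (885 bp) lies in an intron of Cd4, with its midpoint 2165 bp from the Cd4 TSS and 18305 bp past the 3′ end of Lag3. The first intron of Cd4 is known for the silencer that keeps Cd4 off in CD8+ cells, and the study reports Runx3 at this silencer in CD8-TC. With its midpoint 25649 bp from the Lag3 TSS, the region is one of the Cd4 gene that the margin counts to Lag3. Havcr2 (ENSMUSG00000020399.8, chr11:46268437-46294757, plus strand) encodes TIM-3. The region chr11:46250049-46251064 (1016 bp) has its midpoint 17881 bp upstream of Havcr2 and 76 bp from the TSS of Med7, a subunit gene of the Mediator complex. These were the 2 regions nearest to the limit of the window from inside, at 17.9 kb and 18.3 kb.

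The 2 loci without a Runx3-bound region had one just past that limit. For Cd244 (ENSMUSG00000004709.8, chr1:173489324-173515449, plus strand), which encodes the Cd48 receptor 2B4 of the SLAM family, the nearest region was chr1:173536860-173537739, 21.9 kb past the 3′ end and 161 bp from the TSS of Ly9, another SLAM family gene. For Tigit (ENSMUSG00000071552.4, chr16:43648974-43664297, minus strand), the receptor for Pvr, it was chr16:43689995-43690784, 26.1 kb upstream in intergenic sequence, followed by a further region 35.1 kb upstream. Both of these have the Tigit TSS as their nearest protein-coding TSS. For Pdcd1 the next region beyond the window lay 39.5 kb upstream. With a margin of 50 kb all 8 members had a Runx3-bound region, against 30.8% of protein-coding genes in windows of that kind. In the gene body alone 2 did, Cd160 and Btla, against 8.52%.

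H3K4me1 was present at all 8 loci, against 73.6% of protein-coding genes, and the number of regions ranged from 4 at Cd160 to 18 at Btla, with 5 at Pdcd1, 6 each at Ctla4, Tigit and Cd244, 7 at Havcr2 and 14 at Lag3. The median protein-coding gene had 4. Of the 66 regions, 27 had their midpoint in the receptor gene, 24 upstream and 15 downstream of it. For 51 of them the nearest protein-coding TSS was that of the receptor gene. Of the other 15, 7 were at Lag3, where they were nearest to Cd4, A230083G16Rik, Ptms and Mlf2.

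The fraction of each locus under H3K4me1 was 39.9% at Btla and 39.1% at Lag3, more than at 97.4% and 97.2% of protein-coding genes. Cd244 followed with 26.4%, above 91% of genes. The other members lay closer together, at 12.5% for Havcr2, 11.1% for Ctla4, 11% for Tigit, 10.2% for Pdcd1 and 7.93% for Cd160. All 8 were above the median of all protein-coding genes, 5.75%, but these 5 were below the upper quartile, 14.3%. Over the 8 loci together 19.4% was covered, against 6.75% over all gene windows and 4.14% of the genome. Without values per repeat, the order of members that lie close together cannot be set against any spread.

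**Figure D2:**
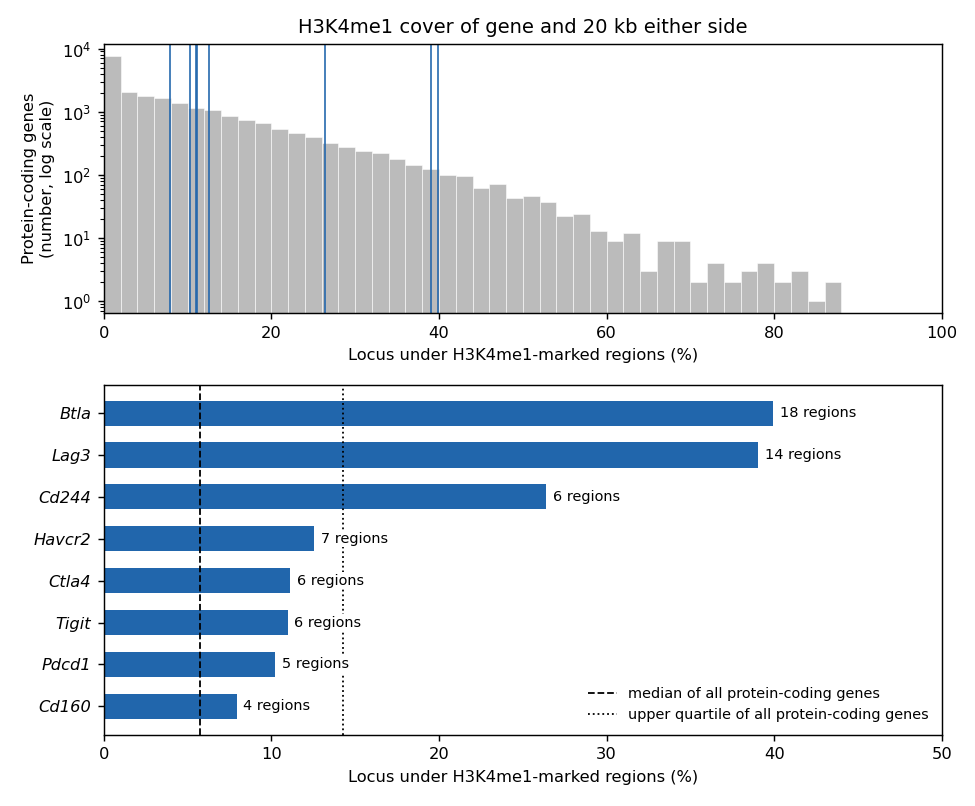
Percent of each locus (gene and 20 kb either side) under H3K4me1-marked regions: above, the distribution over 22350 protein-coding genes (grey bars, number of genes on a log axis) with the 8 members as blue lines; below, each member as a bar with its number of regions, beside the median (dashed) and upper quartile (dotted) of all genes. Btla (39.9%), Lag3 (39.1%) and Cd244 (26.4%) lie above the upper quartile of 14.3%, and the other members lie between it and the median of 5.75%.

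The 3 most covered loci reached their cover in different ways. Btla had 18 regions, from 381 bp to 5414 bp wide, upstream of, in and downstream of the gene, and 50.5% of the gene body was covered. All 18 had the Btla TSS as their nearest protein-coding TSS. The widest, chr16:45229844-45235257, lies in a Btla intron 8100 bp from the TSS, and another of 4325 bp, chr16:45249450-45253774, spans the 3′ end. Lag3 had 14 regions in the shortest window of the 8, 47.3 kb, the widest being chr6:124848004-124852820 (4817 bp) between Lag3 and Cd4. Cd244 had only 6 regions, but none was narrower than 1727 bp. The one over its TSS, chr1:173487847-173494949, was 7103 bp wide, wider than 98.9% of all H3K4me1-marked regions, and no other region of the 8 loci reached this width. The last region counted to Cd244 has its midpoint 19998 bp past the gene, in a coding exon of Ly9.

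Promoters of the receptor genes were marked at most loci. For 7 of the 8 members an H3K4me1-marked region lay within 1 kb of a protein-coding TSS, against 57.8% of protein-coding genes. The TSS base itself was covered at 5 members, Ctla4, Lag3, Tigit, Cd160 and Cd244, against 23.7% of protein-coding genes with a covered TSS. At Pdcd1 the nearest region began 92 bp upstream of the TSS and extended for 2154 bp, and at Btla the nearest ended 353 bp upstream. Havcr2 was the exception, with its nearest region ending 4811 bp upstream of the TSS. This Havcr2 promoter had no Runx3-bound region either, and the marked pair upstream of it, chr11:46260243-46261561 and chr11:46261638-46263626, lies between Med7 and Havcr2. The first of the pair also covers the 5′ end, at 46260750, of the noncoding gene 2310031A07Rik on the minus strand. At Ctla4 the 5′ end of the annotated gene belongs to a noncoding transcript and was unmarked, whereas the protein-coding TSS at 60965869 lay in the region chr1:60965760-60966514.

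All 6 Runx3-bound regions of the 8 loci overlapped H3K4me1 by at least 1 bp (100%, 95% Wilson interval from 61.0% to 100%, counting error only), against 78.8% of the whole Runx3 list. Among regions of the list at least as wide as the narrowest of the 6, the share was 89.6%, and among those less than 1 kb from a protein-coding TSS it was 88.3%. The overlap differed in form. The Ctla4 region lay wholly in an H3K4me1-marked region of 2399 bp. The Cd160 region was 94.7% covered by 3 marked regions separated by gaps of 13 bp and 40 bp. The Pdcd1 region was 86.7% covered, by 2 marked regions with 123 bp between them. At Lag3 65.7% of the Runx3-bound region was covered. At Havcr2 and Btla the cover was only 32.5% and 30.8%. There the Runx3 midpoint fell in a gap between 2 marked regions, of 686 bp and 1024 bp.

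Contact with 2 or more H3K4me1-marked regions was seen for 4 of the 6, those of Pdcd1, Havcr2, Cd160 and Btla, against 10.5% of the Runx3 list. The share was 21.0% among the 865 Runx3-bound regions less than 1 kb from a protein-coding TSS and 8.31% among the others. It was 14.8% among regions at least as wide as the narrowest of the 6. The 6 regions were all wider than the list median of 851 bp. Set to 200 bp around the midpoint, none of the 6 touched 2 marked regions, and set to 500 bp, 2 did.

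**Figure D3:**
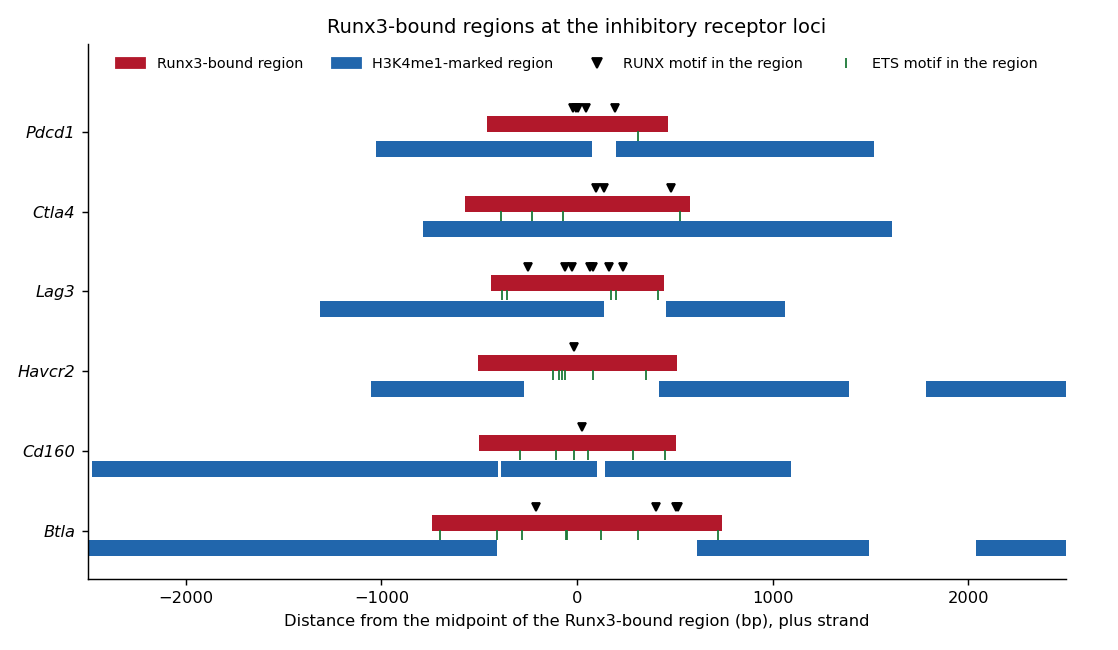
The 6 Runx3-bound regions (red) centred on their midpoints, with the H3K4me1-marked regions around them (blue), RUNX motifs in the Runx3-bound region as triangles and ETS motifs as green ticks; the horizontal axis is distance in bp on the plus strand. The Havcr2 and Btla midpoints fall in gaps of 686 bp and 1024 bp between marked regions, whereas the other 4 midpoints are covered.

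The midpoints of the Runx3-bound regions at Havcr2 and Btla lie 76 bp and 36 bp from the TSSs of Med7 and Btla. In the whole list H3K4me1 covered 66.1% of Runx3 midpoints. Among the 865 regions near a TSS it covered 41.4% of midpoints, against 72.3% of positions 700 bp before and 70.3% of positions 700 bp after. A midpoint in a gap between 2 marked regions touched by the same Runx3-bound region was seen for 15.0% of the regions near a TSS and for 2.38% of the others. The Cd160 region, 75 bp from a TSS, differed from Havcr2 and Btla in that its midpoint was covered.

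**Figure D4:**
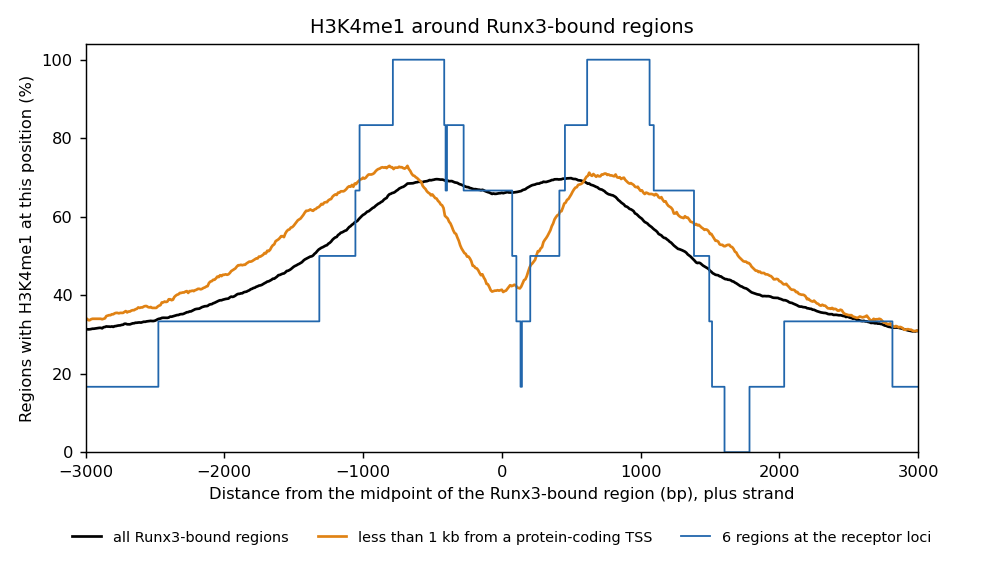
Percent of Runx3-bound regions with H3K4me1 at each distance (bp, plus strand) from the midpoint, for the whole list (black), for the 865 regions less than 1 kb from a protein-coding TSS (orange) and for the 6 regions of the receptor loci (blue steps). The regions near a TSS dip to 41.4% at the midpoint, the whole list stays at 66.1%, and the 6 regions go from 6 of 6 at 700 bp on either side to 4 of 6 at the midpoint.

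Each of the 6 Runx3-bound regions held a RUNX motif (100%, Wilson interval from 61.0% to 100%), against 88.8% of the list. Windows of the same width 5 kb to either side held a motif in 9 of 12 cases, and in 73.3% of cases for the whole list, so that a motif somewhere in a window this wide is common. In the 200 bp around the midpoint a motif was found in 5 of the 6 regions and in 66.0% of the list, the exception being Btla, whose nearest motif begins 214 bp from the midpoint. The number of motifs was 7 in the region inside Cd4 counted to Lag3, 5 at Pdcd1, 4 at Btla, 3 at Ctla4, and 1 each at Havcr2 and Cd160. At least 5 motifs were held by 12.2% of the list. Motifs occurred at 3.25 per kb in the 6 regions and at 1.86 per kb in their flanks, beside 2.96 and 1.69 per kb for the list.

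Of the 21 motifs in the 6 regions, 14 read TGTGGT and 5 read TGTGGC. Havcr2 was the only member whose region, at the Med7 promoter, held no motif but TGCGGT, and Pdcd1 held the single TGCGGC, 189 bp from the midpoint. ETS factors are frequent partners of RUNX proteins, and their motif was searched as AGGAAG or AGGAAA or CGGAAG or CGGAAA on both strands. All 6 regions held at least 1, as did 95% of the list, 10 of the 12 flanking windows of the 6 regions and 88.4% of the flanking windows of the list. The number ranged from 1 at Pdcd1 to 8 at Btla, and the closest start of a RUNX and an ETS motif lay 10 bp apart at Lag3, 32 bp at Cd160, 45 bp at Ctla4, 47 bp at Havcr2, 72 bp at Btla and 118 bp at Pdcd1. A distance of at most 50 bp was thus met by 4 of 6 (66.7%, Wilson interval from 30% to 90.3%), against 56.5% of the list. Of the flanking windows, 50% met it at the 6 regions and 26.9% over the list. The Pdcd1 region combined many RUNX motifs with few ETS motifs, and the Cd160 and Havcr2 regions the reverse, with 6 ETS motifs each. A motif match is a description of the sequence and not a site of binding.

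RUNX motifs were also present at receptor promoters where no Runx3-bound region was called. Tigit shows this, and its upstream sequence is given beside that of Btla, whose promoter was bound. Both are the 250 bp before the TSS, 5′ to 3′ in the direction of transcription, from the RefSeq promoter sequences of build GRCm38.p6, which match NCBIM37 exactly at chr16:43664298-43664547 for Tigit and chr16:45224200-45224449 for Btla. Capitals mark RUNX motifs.
Tigit promoter: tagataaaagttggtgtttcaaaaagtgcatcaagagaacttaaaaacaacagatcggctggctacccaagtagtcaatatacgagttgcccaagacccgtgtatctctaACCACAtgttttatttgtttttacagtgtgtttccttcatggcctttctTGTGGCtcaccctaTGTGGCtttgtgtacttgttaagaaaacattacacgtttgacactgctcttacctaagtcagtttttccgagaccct
Btla promoter: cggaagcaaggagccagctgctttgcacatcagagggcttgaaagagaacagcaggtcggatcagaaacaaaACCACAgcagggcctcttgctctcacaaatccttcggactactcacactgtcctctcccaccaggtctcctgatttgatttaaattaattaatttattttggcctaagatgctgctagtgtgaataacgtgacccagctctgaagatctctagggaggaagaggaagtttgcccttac

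The Tigit promoter holds 3 RUNX motifs, beginning 140 bp, 91 bp and 77 bp before the TSS, and lies under H3K4me1 over its whole length of 300 bp, but the nearest Runx3-bound region is 25698 bp from the TSS. The Btla promoter holds 1 motif, 178 bp before the TSS, and is wholly inside the Runx3-bound region with no base under H3K4me1. RefSeq promoters, 250 bp before to 50 bp after a TSS, were found for 7 of the 8 members, with 8 promoters in all, and 6 of the 8 held a RUNX motif, against 45.2% of 32851 promoters. Those of Pdcd1 and Ctla4 held none. The remaining ones were both Cd160 promoters, with 2 motifs at the longer and 1 at the internal transcript, and those of Havcr2 and Cd244 with 1 each.

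Over the H3K4me1-marked regions of the 8 loci, 51 of 66 (77.3%) held a RUNX motif, against 81.5% of that list, and 11 (16.7%) touched a Runx3-bound region, against 5.49%. The 11 were 3 at Cd160, 2 each at Pdcd1, Havcr2 and Btla, and 1 each at Ctla4 and Lag3, and they touched the same 6 Runx3-bound regions. Those at Cd160 are only 13 bp and 40 bp apart, and those at Havcr2 and Lag3 touch regions at Med7 and in Cd4. At Btla and Lag3 most of the marked regions touched no called Runx3-bound region, with 2 of 18 and 1 of 14 touching one. The 6 marked regions of Cd244 held 25 RUNX motifs in all, 12 of them in 1 region, without a Runx3-bound region among them.

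The genes around the receptors in the pathway were read in the same windows, for which the shares over all protein-coding genes were 19.8% with Runx3 and 73.6% with H3K4me1. Of 12 ligand genes, 5 had a Runx3-bound region, namely Pdcd1lg2 with 2 and Cd86, Lgals9, Pvr and Tnfrsf14 with 1 each, and 11 had H3K4me1, with a median of 17.7% of the locus covered. Tnfrsf14, the shared ligand of Btla and Cd160, was the most covered of them at 43.1%, while Cd274, which encodes the other PD-1 ligand, had no Runx3-bound region and was covered over 27.2%. Of 10 genes of cytoplasmic partners, 5 had a Runx3-bound region: Ptpn6 (the phosphatase SHP-1), Inpp5d (the lipid phosphatase SHIP-1) with 2, the adaptors Sh2d1a (SAP) and Grb2, and the kinase gene Fyn with 2. Their median cover was 24.2%, reaching 72.0% at Grb2 and 63.3% at Ptpn6. Of 10 other inhibitory receptor genes, 5 had a Runx3-bound region, with 4 at 4632428N05Rik (Vsir, which encodes VISTA), 2 each at Cd5 and Cd96, and 1 each at Cd200r1 and Pecam1. Lair1, Cd101, Lilrb4, Pilra and Klrg1 had none. The median cover of these 10 was 13%, beside 11.8% for the 8 members and 5.75% for all protein-coding genes. These lists are small and were chosen, so the shares describe the listed genes only.

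The labelled cell type was checked at marker genes, beside the same shares of all protein-coding genes (19.8% with Runx3, 73.6% with H3K4me1). All 8 T cell markers, of which Cd5 is also among the other inhibitory receptors, had a Runx3-bound region, 5 of them at Cd8b1 and 2 at Cd8a, and H3K4me1 covered from 29.4% to 68.1% of these loci, a median of 39.9%. All 6 B cell markers also had H3K4me1, with a median cover of 36.7% and a range from 19.9% to 53.4%. Of 5 myeloid markers 4 had H3K4me1, with a median cover of 13.8%, and 2 of them, Itgam and Fcgr1, had a Runx3-bound region, while Lyz2 had neither. Of 4 NK cell markers 2 had H3K4me1, with a median of 6.15%, and none had a Runx3-bound region; Ncr1 and Klra8 had neither. Thus the lists do not separate T cell from B cell genes by H3K4me1. Btla is also expressed in B cells and Cd244 in NK and myeloid cells, and the part of other cells in the wide marks at these loci was not tested. By the study's methods the bead selection left a population made up very largely of CD3+ CD8-TC.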

How the data were processed

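Chromatin of resting splenic CD8-TC was sequenced by the authors as reads of 40 to 42 bp from fragments of about 300 bp, aligned to mm9 with ELAND (CASAVA 1.6 and 1.7 in the submitters' processing notes), and uniquely aligned reads were kept. Repeats were joined and peaks called with MACS against joined NIS, the larger data set being scaled to the smaller. Regions that unique alignment leaves unreadable, such as repeats, can hold no peak.

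The deposited lists hold start and end positions in bp and no other values. Starts, counted from 0, were shifted by 1 bp. Regions were placed by midpoint on genes of GENCODE for NCBIM37 (mm9) with a margin of 20 kb, and overlaps needed 1 bp. TSSs were the starts of protein-coding transcripts. Motifs were searched on both strands in Python 3.11.15 with numpy 2.4.6. Intervals are Wilson intervals at 95% and cover counting error only. The functions that place regions and find motifs were tested on simulated data. RefSeq promoters were placed by exact match, and Lag3 has no entry in the table used.

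The genes named were all 8 members and, in the lists of ligands, partners, other inhibitory receptors and cell markers, those with a Runx3-bound region and a few needed beside them, whose values had been seen. Members and lists were chosen with earlier results of these data known. Margins from 0 to 100 kb, other placements, overlaps and motif windows were tried as alternatives.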

Additional observations from a re-analysis of the deposited data

How the results depend on the processing

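The lists hold no read numbers per region and the library totals in the study's methods were not used here, so no limit from depth is given, and a locus without a region is one without a called region. At Serpin genes the study remarks that some stretches look bound in resting CD8-TC but were left uncalled because of higher background. No paired analysis was possible because the repeats had been joined before calling, which also kept either repeat from being left out. Of 57 alternative values over 12 results, 34 stayed within 1.5 times the reported count or within the interval of the reported share. The covered share of the loci and the background shares of genes had no such limit. Their alternatives were all left out of the 34, whatever their size.

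The number of Runx3-bound regions, 6 as reported, was 2 in the gene bodies, 10 with a margin of 50 kb, 20 with 100 kb, and 3 when the nearest TSS had to be that of the member. The number of members with such a region, 6 as reported, was 2 in the gene bodies and 3 by nearest TSS, and stayed at 4 or more otherwise. The H3K4me1-marked regions, 66 as reported, numbered 27 in the gene bodies, 105 with 50 kb, 188 with 100 kb, and 36 after neighbours within 1000 bp were merged. All 8 members had H3K4me1 under each of the 8 alternatives for this count. The covered share of the loci was 22.3% in the gene bodies, 25.4% with 5 kb, 24.0% with 10 kb, 15.8% with 50 kb and 15.9% with 100 kb. Of all annotated genes, not only protein-coding ones, 15.8% had Runx3 and 63.1% had H3K4me1, and in the gene body alone of protein-coding genes 8.52% and 59.9%.

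Alternatives for 3 results were chosen after seeing the data. With marked regions within 200 bp merged, 2 of the 6 Runx3-bound regions touched 2 or more. The share with a RUNX and an ETS motif was 16.7% at 20 bp and 83.3% at 100 bp. The number of members with H3K4me1 near a TSS ranged from 5 to 8.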
